A study of Mus musculus with 12 samples.

Results

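Oli-neu cells kept in conditioned neuronal medium were compared with untreated Oli-neu cells on 6 of the 12 arrays of the series, chosen by their titles and not by any measured value. The line Oli-neu derives from mouse oligodendrocyte precursors and was immortalised with an activated Erbb2, and the cells used here carried a stable transgene fused to EGFP, so both conditions shared it. The treated cultures received medium from primary cultures enriched in neurons for 16 h, and the untreated cultures were grown in parallel. RNA of both conditions was hybridised together on 2-colour Agilent mouse whole genome arrays, and replicates 1 to 3 carried the treated cells in Cy3, replicates 4 to 6 in Cy5. The channel labels speak of neurons and not of their medium, and whether neurons were present in the treated wells cannot be told from them. The submitters count the arrays as technical replicates of a comparison within 1 cell line, and no source used here names separate cultures, so every p-value measures the spread between arrays.

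The deposited value of a feature (a spot on the array) is a log ratio that was scaled so that all features of an array have a standard deviation of 1. All values below are therefore in SD units of the array and are not fold changes. They are given as treated over untreated, which is the reverse of the deposited sign. This direction was taken from genes that the study names as induced, among them Opalin (also called Tmem10), Cnp and Ugt8a, so the sign of those genes is not an independent result. Values after ± are SDs over the 6 arrays and include the difference between the dye orientations, whereas the p-values come from limma with a dye term. A feature or gene is said to have risen or fallen, or is called higher or lower, where its adjusted p was under 0.05 and its mean was at least 1 SD unit from 0. A ratio holds no level, so whether a gene was expressed at all, or whether a cell type was present, cannot be read from these arrays.

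Oligodendrocytes arise from proliferating precursors that leave the cell cycle, extend processes and then produce the proteins and lipids of myelin. The basic helix-loop-helix (bHLH) proteins Olig1 and Olig2 are required for this lineage. They bind DNA at E-boxes, sites of the form CANNTG. The Id proteins have the same dimerisation domain but no DNA-binding region, and they hold bHLH proteins in complexes that do not bind E-boxes. Remodelling of the actin cytoskeleton is known to accompany the outgrowth of oligodendrocyte processes.

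The promoters of Opalin, whose named feature lay highest among the genes with several features, and of Id2, which lay opposite to the Olig genes, are shown with their E-boxes, the sites that bHLH proteins bind. The windows run from 250 bases before to 50 bases after the transcription start, from RefSeq on GRCm38.p6, at chr19:41077064-41077363 (minus strand) for Opalin and chr12:25096043-25096342 (minus strand) for Id2. Capitals mark CANNTG, which reads the same on both strands.
Opalin: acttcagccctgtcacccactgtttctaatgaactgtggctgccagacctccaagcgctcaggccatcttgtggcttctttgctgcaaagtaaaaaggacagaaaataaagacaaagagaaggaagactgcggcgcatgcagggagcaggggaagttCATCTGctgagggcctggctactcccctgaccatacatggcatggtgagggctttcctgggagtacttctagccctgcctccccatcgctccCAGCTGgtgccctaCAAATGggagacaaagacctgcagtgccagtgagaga
Id2: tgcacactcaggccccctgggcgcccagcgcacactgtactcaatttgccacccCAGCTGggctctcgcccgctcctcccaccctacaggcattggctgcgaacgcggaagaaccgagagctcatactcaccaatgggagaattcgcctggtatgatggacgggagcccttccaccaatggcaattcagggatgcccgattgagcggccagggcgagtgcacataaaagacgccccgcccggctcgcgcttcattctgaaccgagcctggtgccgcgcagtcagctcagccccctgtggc
The motif occurred 3 times in the Opalin window and 1 time in the Id2 window. It was present in 72.3% of all 32851 promoters of this length, in 66.7% of the 111 promoters of genes with every feature called higher and in 66.7% of the 180 promoters of genes with every feature called lower. A match is a description of the letters only.

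Of 44290 features, 41230 had a value on all 6 arrays, and they covered 19087 genes, of which 8251 had more than 1 feature. Among features, 6.83% were called higher and 5.57% lower, together 12.4%. At the level of genes, where the features of a gene were averaged, 945 were called higher (4.95%) and 1009 lower (5.29%), together 10.2%, and the median of all genes was -0.08. The shares of 4.95% and 5.29% are the background for the counts of every gene list below. Adjusted p alone passed for 60.5% of features and 64.3% of genes, so the size cut-off set most of the calls. Arrays of the same dye orientation correlated across features with r between 0.859 and 0.890, and arrays of opposite orientation with r between 0.249 and 0.296. All of them share the same 2 conditions.

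The lineage markers moved in the direction that the study's own genes fixed. The Opalin feature of its RefSeq transcript read 8.93, 9.24 and 8.80 SD units with the treated RNA in Cy3 (replicates 1 to 3) and 8.02, 8.20 and 8.49 with it in Cy5. The other Opalin feature, on the clone AK078150, read 6.07, 6.58 and 5.67 with Cy3 and between 3.78 and 4.31 with Cy5. No array of either feature came near 0, and the clone feature lay lower on every array. Cnp, a cyclic nucleotide phosphodiesterase of non-compact myelin, had 1 feature at 5.32 ± 0.34 (adjusted p = 4.12e-10). Ugt8a, which makes galactosylceramide, had features at 5.28 ± 0.24, 4.78 ± 0.50 and -0.20 ± 0.26, and the last of these was not called. Olig1 had 1 feature, which read between 5.05 and 5.67 on the 6 arrays. Id2 had features at -6.00 ± 0.96 and -3.50 ± 0.17 on its RefSeq transcript, while the feature on the clone AK013239 read 2.03, 2.39 and 2.03 with Cy3 and -0.68, -0.35 and -0.53 with Cy5 and was not called.

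**Figure D1:**
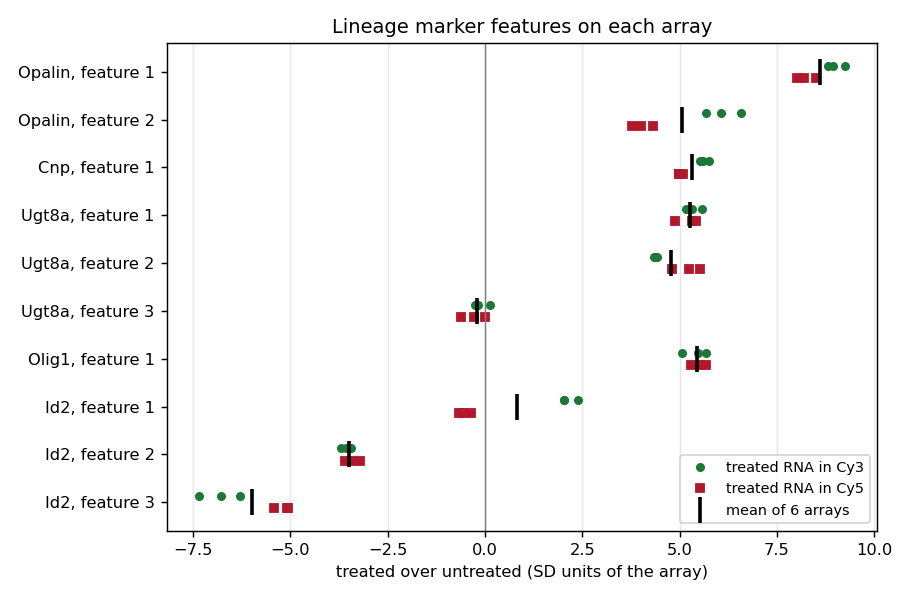
Every feature of Opalin, Cnp, Ugt8a, Olig1 and Id2, with the value on each array as treated over untreated in SD units. Green circles are replicates 1 to 3 (treated in Cy3), red squares replicates 4 to 6 (treated in Cy5), and black bars the means of 6 arrays. The 3 Id2 features spread from -6.00 to 0.82.

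The bHLH and Id genes were called in both directions. Of 21 measured genes of this list, 3 were called higher, 6 lower and 12 were not called, with a list median of -0.34. Olig1 and Olig2 rose, and the study reports both as induced in this comparison. The features of Olig2 lay apart, at 6.36 ± 0.72 and 1.51 ± 0.30, but both were called higher and all 12 array values were above 0. Hes5, a repressor downstream of Notch, was just past the cut-off at 1.01. Of the inhibitors, Id2 is described above. Id1 fell to -3.03 with features at -3.05 and -3.01, and Id4 to -2.78 with features at -2.81 and -2.75. On single arrays Id1 ranged between -3.75 and -2.51 and Id4 between -3.32 and -2.18, so neither overlapped 0. Atoh8 (-2.55), Neurod1 (-1.26) and Hes1 (-1.13), bHLH factors known from neural and other development, were also called lower.

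Myelin genes were called higher more often than the background of 4.95%. Of 19 measured genes for myelin proteins, 6 rose, 1 fell and 12 were not called, and the list median was 0.43. Opalin and Cnp, from which the direction was taken, are among the 6. Pllp and, under an older name, Gjc3 are also genes that the study reports as induced in this comparison. The excess over the background is therefore not independent of that report. Gjc3, an oligodendrocyte connexin, stood at 2.68 ± 0.76 and Pllp, the tetraspan protein plasmolipin, at 1.70 ± 0.49 with 3 features between 1.10 and 2.22. Omg, a glycoprotein of the oligodendrocyte surface, stood at 1.46 and Plekhb1, a membrane protein, at 1.31. The gene that fell was Mbp, the major protein of compact myelin. Its features stood at -1.56, -1.44 and -0.56, and the first of these read -2.97, -3.34 and -2.36 with Cy3 but -0.14, -0.71 and 0.16 with Cy5. Other proteins of the mature sheath were not called: Mag had a mean of 0.43, Mobp of -0.04 and Mog of -0.09. The Mobp mean covers features that lay apart. In Mobp, 1 feature had a mean of 1.08 with Cy3 and of -2.19 with Cy5. Another read 5.24 on replicate 5 and between -0.55 and 0.23 on the other arrays.

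The enzymes of myelin lipids had 6 of 15 measured genes called higher, none lower and a list median of 0.51, and Ugt8a is among the 6. The study also reports Aspa, Gal3st1 and, under an older name, Far1 as induced in this comparison. Aspa, which frees acetate from N-acetylaspartate, read between 2.57 and 2.87 on the 6 arrays, with features at 2.51 and 2.89. Gal3st1, which sulphates galactosylceramide to sulphatide, stood at 2.46 ± 0.36 and Gltp, a glycolipid transfer protein, at 1.70 ± 0.36. Elovl7, a fatty acid elongase, stood at 1.31 with both features called. Far1, which reduces fatty acyl-CoA to fatty alcohols, passed at the level of the gene through 1 feature at 7.40, and its other 4 features lay between -0.21 and 0.28.

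Markers and regulators of early differentiation had 8 of 26 measured genes called higher and 1 lower, with a list median of 0.66. Bcas1, Tmeff2, Phyhipl and Kctd4 are among the genes that the study reports as induced in this comparison. The count is therefore not independent of that report. Bcas1, which marks oligodendrocytes that are starting to myelinate, had features at 4.20 ± 0.60 and 3.51 ± 0.51, and its lowest array value was 2.80. Gpr17, a receptor of precursors committed to differentiate, had features at 3.73 and 1.44. Among transcription factors, the 4 features of Tcf7l2 lay between 1.73 and 2.34, those of Sox8 at 2.66 and 2.61, and the feature of Myt1 at 2.55. Tmeff2 (3.38), Phyhipl (3.62) and Kctd4 (1.82) were called as well, with the 3 Tmeff2 features far apart at 1.31, 2.75 and 6.09. Klk6, a secreted kallikrein found in mature oligodendrocytes, fell to -3.43 ± 0.89. Sox10, at 0.89, was not called because it stayed under 1 SD unit (adjusted p = 2.83e-05). Its features lay apart, at 1.44, which was called higher, and at 0.34, which was not called.

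Genes of precursor cells did not fall as a group. Of 20 measured, 5 were called higher and none lower, with a median of 0.23. Tnr, the matrix glycoprotein tenascin R, had the largest mean at 5.29 ± 0.55, followed by the proteoglycans Cspg5 (1.97) and Vcan (1.82), by Lhfpl3 (1.74) and by the phosphatase Ptprz1 (1.45). Features of Vcan spread over 0.01, 1.01, 2.17 and 4.10. The precursor receptors Pdgfra (0.27) and Cspg4 (0.50) were not called at the level of the gene. The Cspg4 feature on its RefSeq transcript stood at 1.60 and was called higher. Its other feature, on a clone, stood at -0.59 and was not called.

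Agreement between the features of a gene gave a shorter list. Every feature was called higher in 107 of the 8251 genes with 2 or more features (1.3%) and lower in 152 (1.84%). Besides Opalin, Olig2 and Bcas1, the 12 genes that stood highest included Plekha2, an adaptor that binds phosphoinositides, with features at 3.24, 3.35 and 5.17. Slc18a2, the vesicular monoamine transporter, had features at 3.29 and 3.91, and Cyfip2, a subunit of the WAVE complex that acts on actin branching, at 2.17, 2.64 and 4.43. Sapcd1 stood at 3.44 with features at 3.38 and 3.50, Sh3d19 at 2.99, the planar polarity gene Prickle1 at 2.87 and the long non-coding RNA Tug1 at 2.81. Tug1 read between 2.02 and 2.34 with Cy3 and between 3.24 and 3.62 with Cy5, so its orientations did not overlap although all 6 arrays were above 0.

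Of the 12 that stood lowest, Tinagl1, a secreted basement membrane protein, had features at -6.38 and -5.35 and Adamts1, a secreted protease of proteoglycans, at -4.78 and -4.62. The 3 features of Fgfr3, a receptor for fibroblast growth factors, stood at -4.62, -3.80 and -3.31. All 3 read lower with Cy3 (between -5.97 and -3.98) than with Cy5 (between -3.79 and -1.80). Surface proteins of clotting and plasminogen activation were among these genes, with Plaur, the urokinase receptor, at -3.68 ± 0.22 and F3, tissue factor, at -3.29 ± 0.93. Cd36, a fatty acid and lipoprotein receptor, stood at -3.71, the stress gene Gadd45b at -3.44, the troponin Tnnt2 at -3.43, Olfml2b at -3.39 and Olfm2 at -3.17. Serpina3f, a serine protease inhibitor, had features at -6.43 and -3.06, and Id1 completes the 12.

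**Figure D2:**
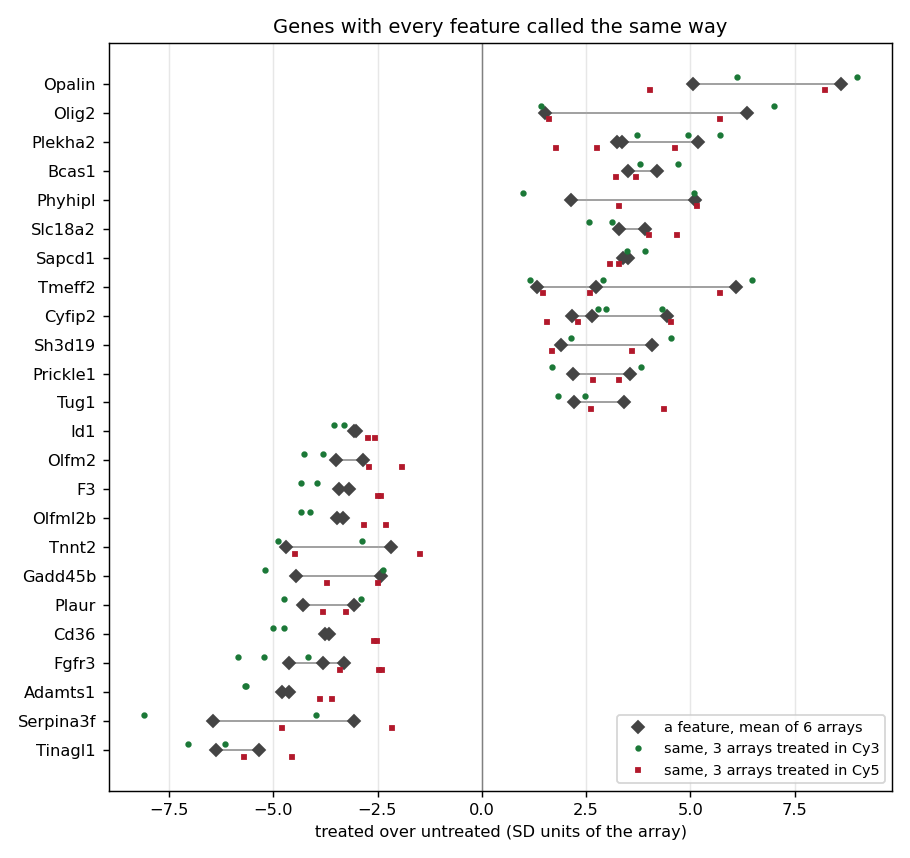
The 12 highest and 12 lowest genes among those with every feature called in 1 direction, in SD units of treated over untreated. Diamonds are the mean of each feature over 6 arrays, green circles and red squares its means over replicates 1 to 3 (treated in Cy3) and 4 to 6 (treated in Cy5). The features of Id1, Cd36 and Adamts1 lie close together, and those of Olig2 and Tmeff2 far apart.

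Genes of the contractile and adhesive machinery were called lower more often than the background of 5.29%. Of 29 measured actin and contractile genes, 9 fell and 1 rose (Lmod1, 1.11), with a list median of -0.50. Tmsb4x, which sequesters actin monomers, stood at -3.13 ± 1.16, the cross-linker Actn1 at -2.47 ± 0.66 and the calponins Cnn2 and Cnn3 at -2.29 and -1.96. Tagln2 (-2.08), the myosin light chain Myl12a (-1.77), profilin (Pfn1, -1.41) and the actins Actg1 (-1.19) and Actg2 (-1.18) make up the 9. Of these 9 genes, 8 had 1 feature only. Among 18 measured annexins and S100 proteins, which bind membranes or partner proteins in response to calcium, 6 fell and none rose, with a median of -0.47. They were Anxa5 (-4.87), Anxa1 (-4.35), Anxa2 (-2.91), S100a10 (-1.91), S100a6 (-1.81) and S100a16 (-1.79). Anxa1 read between -3.02 and -2.73 with Cy3 and between -6.32 and -5.57 with Cy5, so the orientations did not overlap.

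Of 27 measured integrins and adhesion molecules, 4 fell and none rose, with a median of -0.31. They were Cd44, a hyaluronan receptor, Vcam1 (-1.91), the laminin receptor subunit Itga6 (-1.83) and Cadm1 (-1.07). Each had 3 features, and every feature was called in 1 of the 4 genes, Itga6 (-2.63, -1.82 and -1.04). The features stood at -2.63, -2.63 and -0.73 in Cd44, at -3.59, -1.54 and -0.60 in Vcam1 and at -1.92, -0.93 and -0.36 in Cadm1. The last Vcam1 feature read above 0 with Cy3 and below 0 with Cy5 on every array. Matrix genes and proteases had 5 called lower and 2 higher of 34, with Adamts4 at -1.69, Nid2 at -1.21 and Lamb1 at -1.12 beside Tinagl1 and Adamts1, and with Sparcl1 at 1.07 beside Tnr. Targets of YAP and TEAD had 4 lower and 1 higher of 22. Wwtr1, the co-activator TAZ itself, stood at -1.89 as the mean of 2 features that lay apart, at -2.86 ± 0.53 and -0.91 ± 0.52, and the second of these was not called. Fosl1 stood at -2.05 and Ajuba at -1.05. Amotl2, which binds YAP, was the gene that rose, at 3.07 ± 0.10.

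Receptors and ligands of growth signals were mostly called 1 or a few to a list. Of 19 growth factor receptors, Fgfr3, Ngfr (-2.70 ± 0.14) and Erbb2 (-1.78 ± 0.43) fell and Lifr (1.05) rose. The Lifr features ran between -0.65 and 3.45, and 15 receptors were not called. In the Notch list, Jag1, a ligand, fell to -1.73 and Cntn1, a cell adhesion protein that binds Notch, rose to 2.11, with 16 of 18 not called. In the BMP list, Chrd, which binds BMPs outside the cell, rose to 2.04, Bmp2 to 1.07, and the decoy receptor Bambi fell to -1.32 with features at -2.54 and -0.11. In the Wnt list, the only Wnt2 feature stood at 7.56 ± 1.41, the transcription factor Lef1 at -1.31, and 24 of 26 were not called. Of 12 genes for IGF signalling, Igfbp3 (-2.53), Igf1 (-1.26) and Igfbp7 (-1.06) fell and Igfbp5 rose to 1.49, with both of its features called. Of 10 serpins, Serpina3f, Serpinf1 (-2.19) and Serpinb1a (-1.47) fell and Serpina3n rose to 2.30.

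Immediate early genes, which respond to growth factor signals within minutes, had 9 of 28 measured genes called lower, 1 higher and a list median of -0.55. Klf4 stood at -3.26 ± 0.50, Ier3 at -2.98 ± 0.50 and Klf6 at -1.77. The phosphatases of MAP kinases Dusp4 (-2.47), Dusp1 (-1.32) and Dusp6 (-1.08) fell, as did Atf3 (-1.34), Fosl1 and Fosl2 (-1.25). Myc was the gene that rose, at 1.59. Fos (-0.67), Jun (-0.45) and Egr1 (0.49) were not called. Among genes of ER stress and of amino acid shortage, 5 of 28 fell and 2 rose, with a median of -0.51. The transcription factor Ddit3 (-2.16), the secreted ER protein Manf (-1.94), Chac1 (-1.91) and the cystine carrier subunits Slc7a11 (-1.27) and Slc3a2 (-1.23) fell, and Sesn2 (1.71) and Atf6 (2.90) rose. The 2 features of Atf6 stood at 6.26 and -0.46.

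Of 20 measured sterol genes, 6 fell, none rose, and the list median of -0.63 was the lowest of all lists described. Mvk (-1.84), Stard4 (-1.50), a sterol carrier, Fdps (-1.35), Nsdhl (-1.32), Cyp51 (-1.18) and Fdft1 (-1.13) fell. All 6 had several features, and in 1 of them every feature was called. Hmgcs1, at 0.49, was not called. In the list for fatty acid synthesis, 2 of 16 rose and 3 fell. Acsl3, which activates long fatty acids, rose to 2.55 ± 0.16 and Thrsp to 1.04, while Mlxipl (-1.07), Me1 (-1.03) and Acsl4, which lay at the cut-off, fell. Thrsp and Me1 lost their calls with 1 array left out (Thrsp 0.98 without replicate 5, Me1 -0.92 without replicate 2 and -0.99 without replicate 5). Me1 read between -2.35 and -1.70 with Cy3 and between -0.28 and 0.13 with Cy5. Apoe, the lipid carrier that glia secrete, rose to 2.36 ± 0.53 and Abcg1, a cholesterol exporter, to 1.08, and Lcat, which esterifies cholesterol, fell to -2.03.

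Cell cycle genes were called in both directions. Of 42 measured, 4 rose, 5 fell and 33 were not called, with a median of 0.12. The genes that fell were Ccnd1 (-2.05), its kinase partners Cdk4 (-1.51) and Cdk6 (-1.51) and the inhibitors Cdkn2a (-2.08) and Cdkn1c (-1.03). Those that rose were Mki67 (1.72 ± 0.21), a marker of cycling cells, the mitotic kinesins Cenpe (1.52) and Kif11 (1.36) and the topoisomerase Top2a (1.29). The 3 features of Cenpe stood at 0.71, 1.70 and 2.16. Top2a varied more between arrays (SD of 1.16) than Mki67.

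Markers of other cells moved as follows, and their part in the results above was not tested. The background over all genes was 4.95% higher and 5.29% lower. Of 28 measured neuron markers, 6 were called higher (21.4%) and none lower, with a median of 0.38. Eno2 (1.70), with both features called, Slc17a7 (1.73), Mapt (1.03), Gad1 (1.03) and Tubb3 (1.02) were among them. Nefl passed through a feature at 6.41, beside another at -0.25. Snap25 (0.24), Syt1 (0.47), Stmn2 (-0.09), Rbfox3 (-0.17) and Map2 (-0.82) were not called. Astrocyte markers had 3 higher and 3 lower of 19 (15.8% each). Gfap fell in all 3 features (-3.60, -2.70 and -2.52), and on none of the 18 array values did it reach -1.70. Fgfr3 and Glul (-1.21) fell too, Gja1 (1.32) and Ndrg2 (1.26) rose, and Aqp4 (0.05) and Slc1a2 (-0.02) were not called. Microglia markers had 3 higher (17.6%) and 1 lower (5.88%) of 17. C1qa stood at 2.23 ± 0.15, Fcgr3 at 1.08 and P2ry12 at -1.42, while Aif1 (0.13) and Cx3cr1 (-0.10) were not called. Cd14, which stands in both the astrocyte and the microglia list, read between 4.06 and 6.36. Markers of fibroblasts, vessels and Schwann cells had 2 lower (11.1%) and none higher of 18. The genes called lower were Ngfr and the lipid-binding Pmp2 (-2.28).

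**Figure D3:**
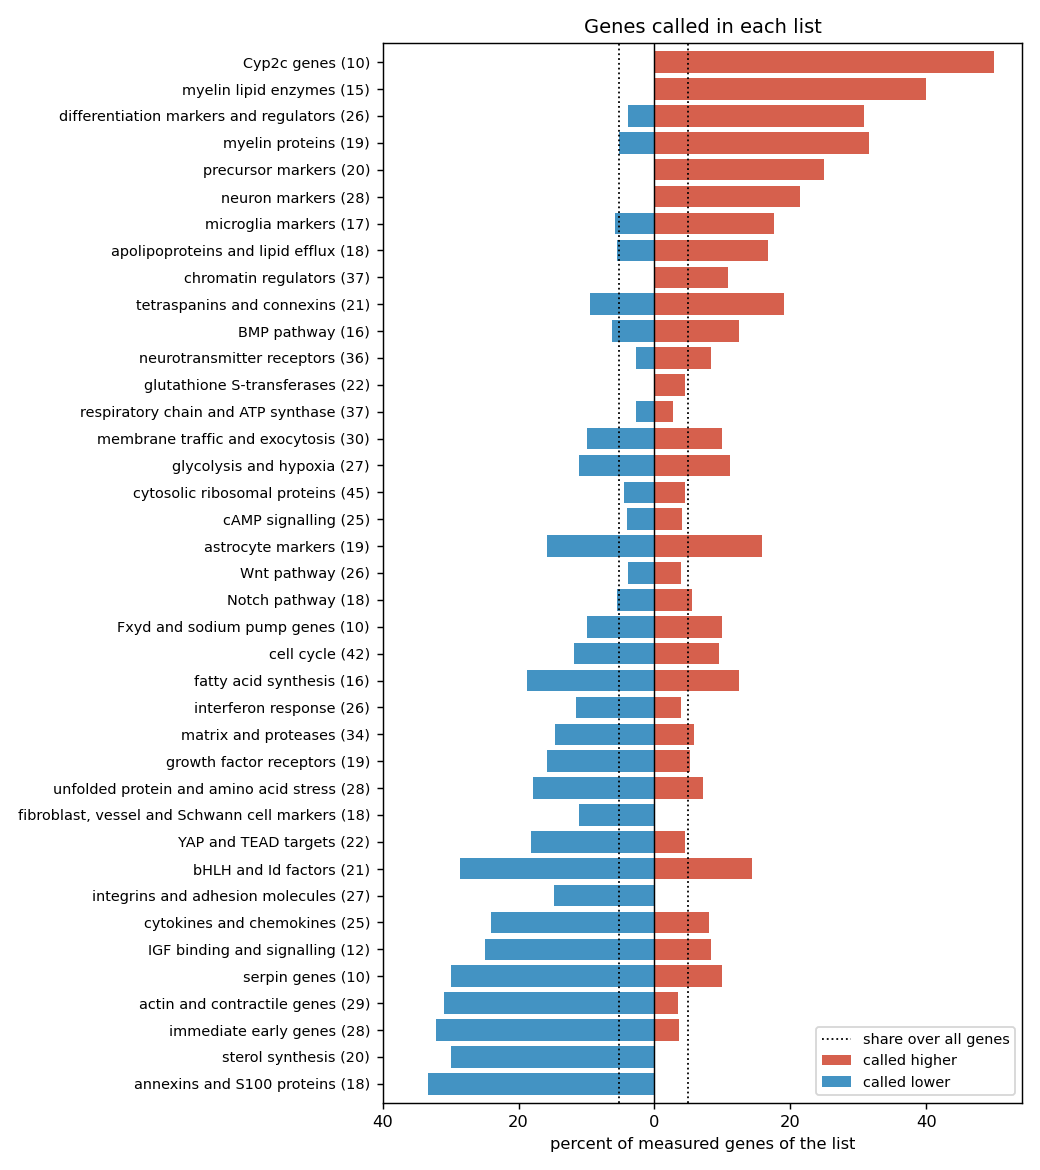
Percent of measured genes called higher (red, to the right) and lower (blue, to the left) in each gene list, with the number of measured genes in brackets. Dotted lines are the shares over all genes, 4.95% higher and 5.29% lower. Myelin lipid enzymes lie far to the right (6 of 15 higher), annexins and S100 proteins far to the left (6 of 18 lower).

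Cytochrome genes of the Cyp2c family, which oxidise fatty acids and foreign compounds, had 5 of 10 measured genes called higher and none lower, with a median of 0.90. Cyp2c39 stood at 6.93 ± 0.16 and Cyp2c29 at 6.17 ± 0.80. Cyp2c37 had features at 5.18 and 0.63 and Cyp2c38 at 4.98 and -0.03, and Cyp2c55 stood at 1.05. These genes are close copies of each other, so their features may share signal. Cyp2c39, Cyp2c29, Cyp2c37 and Cyp2c38 are among the genes that the study reports as induced in this comparison. The count of called Cyp2c genes is therefore not independent of that report. Of 22 glutathione S-transferases, Gstm2 alone was called, and it read between 2.67 and 10.11 on the 6 arrays. Apart from Wnt2 and Cyp2c39, the highest genes with 1 feature were Mpp2 (7.07), Tctn2 (7.02), Rtl3 (6.97) and the olfactory receptor Olfr50 (6.56). Tctn2 ranged between 4.13 and 9.63 and Rtl3 between 6.56 and 7.45. The lowest, besides Anxa5 and Anxa1, were Otor (-4.54), Fxyd3 (-4.34), which modulates the sodium pump, the kallikrein Klk9 (-4.19) and Tm4sf1 (-4.12).

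Cytokine and interferon genes were called in both directions. Among 25 cytokines, chemokines and related genes, Tnfrsf12a (-3.66 ± 0.17), Cxcl5 (-2.53), Csf1 (-1.90), Cxcl2 (-1.24), Socs2 (-1.19) and Ccl20 (-1.17) fell, and Lbp (5.18) and Ccl2 (1.09) rose. Among 26 interferon response genes, Cxcl10 (-1.54), Ifi35 (-1.37) and Irf7 (-1.04) fell and Rsad2 (1.11) rose. Of 21 tetraspanins and connexins, Cd82 rose to 5.91 ± 0.90 and Tspan6 to 1.54, and Cd151 (-1.33) and Cd63 (-1.98) fell. Cd63, a tetraspanin of late endosomes, read between -0.79 and -0.04 with Cy3 and between -3.80 and -3.23 with Cy5. In the list for membrane traffic, Rab26 (2.98), Rab31 (1.55) and the synaptotagmin Syt11 (1.24) rose, and the late endosomal Rab7 (-1.45), Lamp1 (-1.21) and Rab22a (-1.03) fell, out of 30.

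Genes for ribosomal proteins and the respiratory chain were called about as often as the background or less. Of 45 cytosolic ribosomal protein genes, 2 rose and 2 fell, and of 37 genes for the respiratory chain and ATP synthase, 1 rose and 1 fell. Their medians were -0.36 and -0.44. By adjusted p alone, 26 ribosomal genes passed as lower and 4 as higher, and 22 and 4 did so in the respiratory list. The median of the ribosomal genes was 0.28 over replicates 1 to 3 alone (treated in Cy3), so it had no settled sign. Gapdh stood at -0.40 and Actb at -0.35. Of 25 genes of cAMP signalling, the adenylyl cyclase Adcy2 (2.33, with features at 4.96 and -0.29) rose and the anchoring protein Akap12 (-1.65) fell. Of 27 genes of glycolysis and hypoxia, 3 rose and 3 fell (11.1% each, above the background), with the lactate carriers Slc16a3 at 1.90 and Slc16a1 at -1.16 on opposite sides.

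Features of 1 gene often disagreed among the largest values. Of 1243 genes with several features of which at least 1 was called higher, every feature was called higher in 8.61%, and of 974 with a feature called lower, every feature was called lower in 15.6%. In 49 genes, 1 feature was called higher and another lower. The gap was widest in Crem, a cAMP-responsive transcription factor, with 1 feature at 7.43 and 4 called lower between -1.59 and -1.40. Daam1 had features between -1.38 and 6.08 and Necap2 stood at -2.04 and 5.34. Of 37 chromatin regulators 4 rose and none fell, but 3 of the 4 did so through 1 high feature, with Chd1 at 8.01, 0.28 and 0.13, Sfmbt1 at 7.65 and -0.03 and Smarca1 at 6.65 and -0.56. The receptors Drd4 (6.35 and 0.30), Chrna4 (6.34 and 0.76) and Drd2 (5.30 and 0.08) passed through 1 feature each, and 3 of 36 neurotransmitter receptors were called higher in all. By the accession of the feature, 6.69% of 23202 features on RefSeq messenger RNAs were called higher and 7.24% lower, against 6.72% and 3.13% of 8498 features on other accessions and 7.25% and 3.70% of 9530 features with no single gene.

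**Figure D4:**
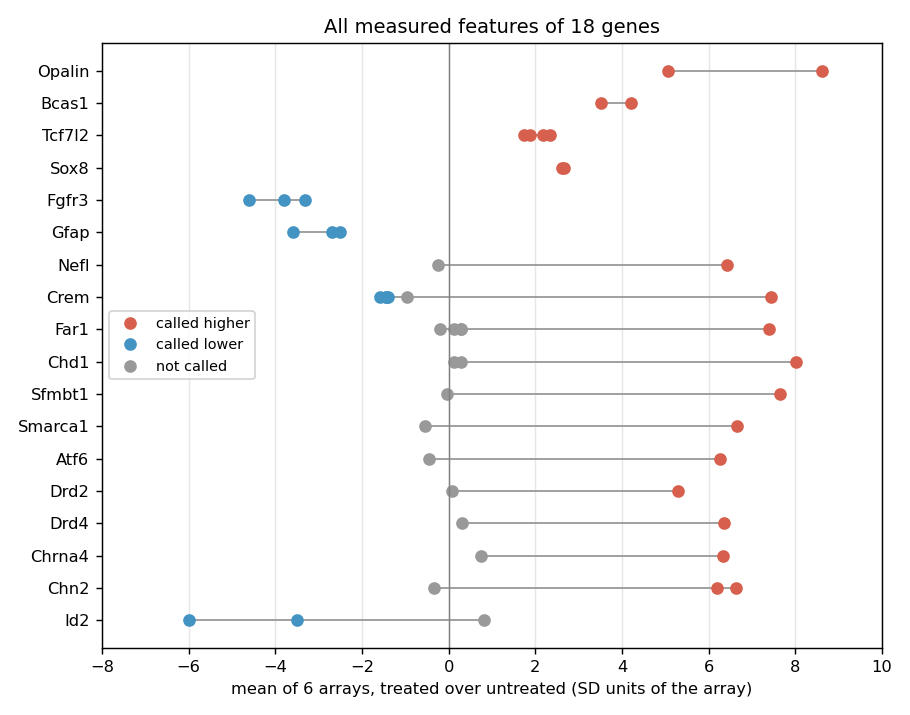
All measured features of 18 genes, as the mean of 6 arrays in SD units of treated over untreated, coloured by call. The upper 6 genes have features in agreement, and most of those below combine a feature above 5 with others near 0 or under it.

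The dye orientation was visible across all features and not only on single ones. Arrays of opposite orientation correlated with r between 0.249 and 0.296 only, against 0.859 to 0.890 within an orientation. The dye term was at least 1 SD unit with an adjusted p under 0.05 in 3092 features (7.50%). Of the 2814 features called higher, 2583 were above 0 on all 6 arrays, and of the 2298 called lower, 1993 were below 0 on all 6. Among genes these were 911 of 945 and 931 of 1009. The means of both orientations shared a sign in 2731 of the features called higher and 2121 of those called lower. Among genes they did so in 938 of those called higher and 973 of those called lower. A group of 37 features, none with a gene name, had means between -5.66 and -4.45 over replicates 1 to 3 (Cy3) and between 1.485 and 3.185 over replicates 4 to 6 (Cy5). They count among the features called lower, and 2261 remain without them. This group was singled out after the values were seen, and it touches no named gene. Opposite signs between the orientations also occurred among called genes, so they were not confined to this group.

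**Figure D5:**
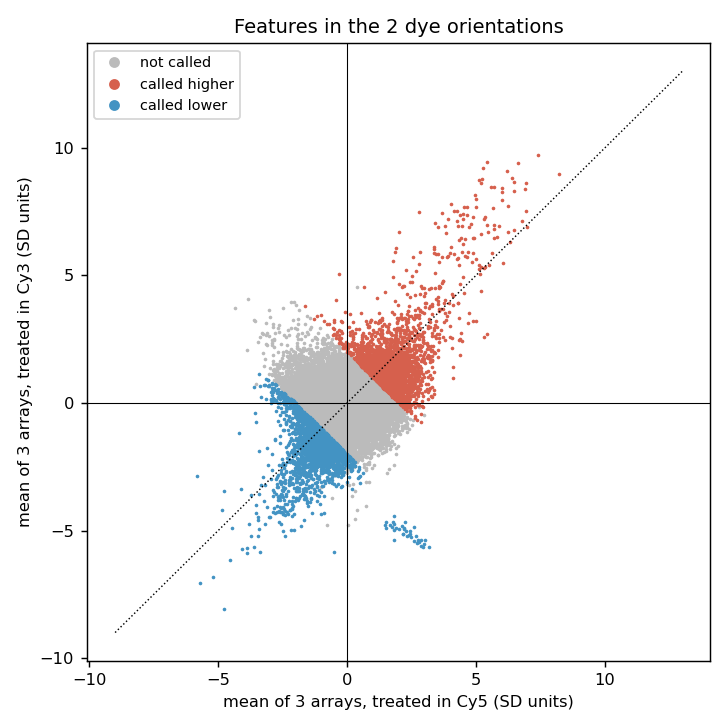
Each measured feature by its mean over replicates 4 to 6 (treated in Cy5, x axis) and over replicates 1 to 3 (treated in Cy3, y axis), in SD units of treated over untreated. Red features are called higher, blue lower, grey not called, and the dotted line marks equal values. The 37 unnamed features form the separate blue group at the lower right.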

How the data were processed

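Gene expression was measured on 6 2-colour arrays that each compared conditioned neuronal medium with untreated Oli-neu cells. From the scanned intensities the authors computed the deposited score of each feature, with loess normalization, replacement of saturated features of a high gain scan from a low gain scan, and scaling to an SD of 1 per array. The base of the logarithm, the scaling and the centring are not given in the sources used here. Signs were reversed. Genes were named through the array's annotation, updated for 31906 of 32089 listed probes, and features of a gene were averaged.

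Treatment was tested in limma 3.58.1 (R 4.3.3) as an intercept beside a dye term, with Benjamini-Hochberg adjustment over 41230 features or 19087 genes, and the procedure was tested on simulated data. The number of arrays limits the precision. Alternatives changed the dye term, centring, scaling, moderation, size cut-off, orientation, replicate set and feature summary. The gene lists, the members and the rules were chosen with earlier results of these data known. Some list members are genes that the study reports as changed in this comparison. A list called more often than the background is therefore not an independent result. Genes named by rule were the 5 lineage markers, the 12 highest and 12 lowest genes with every feature called, 6 each with 1 feature, up to 4 called genes per list and a fixed set of lineage and cell markers. Any other gene was chosen after its values were seen. The other 6 arrays were not used here, and some genes and 1 gene list are not reported here.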

Additional observations from a re-analysis of the deposited data

Results flagged for a closer look

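In 4 of the 164 named genes checked, 1 array lay far from the other 5 by Dixon's criterion. Chance flags about 1 in 20 groups where all 6 values share 1 mean. The check pooled both dye orientations, and a gene whose orientations lay apart can hardly be flagged. The 4 can therefore not be set against that rate. Anxa5 read -8.417 SD units on replicate 3, whereas the others lay between -4.71 and -3.562, and its mean without that array was -4.23. Clu, the secreted chaperone clusterin, read -0.9376 on replicate 6 and between 1.903 and 2.308 on the others, with a mean of 1.56 over all arrays and 2.05 without that one. Mki67 read 2.129 on replicate 4 (others between 1.543 and 1.724) and Lbp 6.189 on replicate 1 (others between 4.663 and 5.199).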

How the results depend on the processing

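No paired analysis was possible because each array already holds both conditions and only 1 group of arrays was used. Counts are given in the order features called higher, features called lower, genes called higher, genes called lower, genes with every feature called higher and genes with every feature called lower. Leaving out each replicate gave 2796 to 2911, 2287 to 2378, 949 to 968, 980 to 1046, 105 to 111 and 142 to 156. With a cut-off of 2 SD units they were 547, 326, 207, 138, 17 and 32, and with no cut-off 11476, 13476, 5264, 7008, 803 and 1142. With replicates 1 to 3 alone (treated in Cy3), 4202 features and 1718 genes were called lower, and 275 genes had every feature called lower. With replicates 4 to 6 alone (treated in Cy5), 4997 features and 1616 genes were called higher, 5164 and 2147 lower, and 227 genes had every feature called higher. The other settings stayed within 1.5 times the counts in the text. Of 158 called named genes, 134 kept call and direction under every alternative, and 24 lost the call under at least 1, among them Mbp, Clu, Cd63 and Chd1. Without 1 array, 5 fell under 1 SD unit, namely Igfbp7 (-0.91 without replicate 2, -0.997 without replicate 6), Me1 (-0.92 without replicate 2, -0.99 without replicate 5), Thrsp (0.98 without replicate 5), Gad1 (0.99 without replicate 6) and Rpl10a (-0.95 without replicate 3). The value of Mobp, not called, turned to 0.0299 after scaling by the median absolute deviation and to 0.397 with replicates 1 to 3 alone, and ran between -0.321 and 0.189 with each replicate left out. In 30 cases a list median moved with the setting, such as that of the serpins, which was 0.13 with replicates 1 to 3 alone. The causes were not tested. Signal over background was not used here, so no limit by signal could be set.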
